A study of Mus musculus with 230 samples.

Results

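The cells described here are 37 of the 121 embryonic day 15 (E15) cells of a mouse single-cell series of 230 cells, chosen by their measured transcript level of Neurog2, at least 1 RPKM (read counts scaled to transcript length and sequencing depth), and compared with the 84 E15 cells below that limit. The series asked how glutamatergic progenitors and their young neurons differ before and after birth, and the E15 cells came from the microdissected pallium. All E15 cells came from C57BL/6 mice of the genotype Neurog2CreERT x Ai14+/+, received tamoxifen 12 h before harvest, and were sorted for the red reporter tdTomato, so these features are shared by both groups. In these mice regulatory sequences of Neurog2 drive a tamoxifen-dependent recombinase, and the reporter marks cells in which the driver had been active as well as what those cells have become since. Reads were single, of 75 bp, from 1 library per cell. No animal or litter is named in the labels, which makes the E15 cells 1 sample with no replicates. Each difference below therefore has no test, p-value or standard error, and shares of cells carry an exact (Clopper-Pearson) 95% binomial interval, which covers counting error only.

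Neurog2 encodes a proneural basic helix-loop-helix (bHLH) transcription factor that commits progenitors of the dorsal telencephalon to the glutamatergic lineage. It is switched on in radial glia and kept in the intermediate progenitors they produce, which express Eomes, divide away from the ventricle and give rise to neurons that turn on the Neurod genes. Neurog2 itself is short-lived and is lost as neurons mature, while the Delta ligand Dll1, the T-box factor Eomes, the bHLH factor Neurod1 and the small GTPase Rnd2 are among its known targets.

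The cell titles come in 2 formats, called set A (60 cells) and set B (61 cells) here; that a format marks a separate capture is an inference. Set A held 11 cells with Neurog2, or 18.3% (9.52 to 30.4), and set B held 26, or 42.6% (30.0 to 55.9). Because the share differed between the sets, each difference was taken within a set and then combined. Cells with Neurog2 had a median of 3083 detected genes (968 to 4017, RPKM of at least 1) and cells without had 2767 (809 to 4329). The gap was 2851 against 2744 genes in set A and 3139 against 2780 in set B. Values from cells matched on detected genes are given below for the lists they bear on. The read total estimated for a cell had a median of 6.57 M (mega) with and 6.47 M without Neurog2. Mitochondrially encoded genes held a median of 9.57% and 8.93% of a cell's RPKM.

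Neurog2 itself, the measure that chose the cells, ran from 1.09 to 63.3 RPKM in the 37 cells, with a median of 7.76, which is about 14 to 829 reads per cell. Of the other cells, 42 in set A and 28 in set B were listed at 0, and 7 in each set lay above 0 and below the limit. The members nearest to the limit had 1.09, 1.70 and 2.06 RPKM in set A and 1.19, 1.38 and 1.62 RPKM in set B. Just outside lay cells with 0.970, 0.612 and 0.603 RPKM in set A and 0.795, 0.760 and 0.629 RPKM in set B. The limit thus runs through a continuous range of low values, and the member at 1.09 RPKM rested on about 20 reads while the cell at 0.970 RPKM had about 22. Within the members, 19 cells lay between 1 and 10 RPKM and 18 at 10 RPKM or more.

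**Figure D1:**
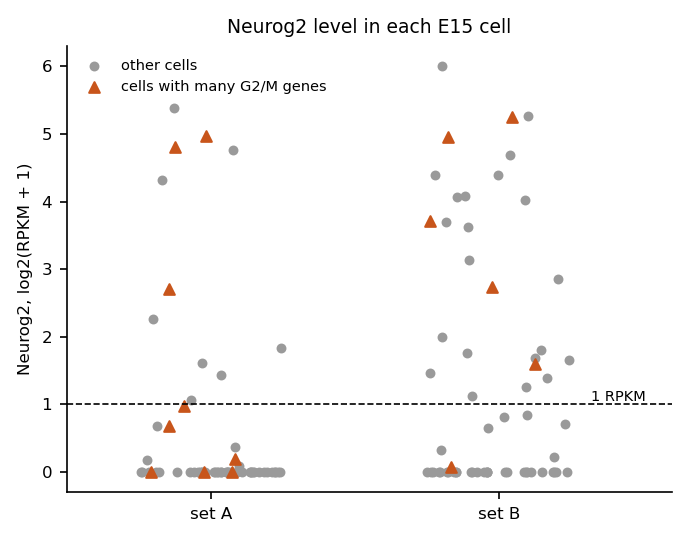
Neurog2 level of each E15 cell, as log2(RPKM + 1), in set A and set B; the dashed line is the limit of 1 RPKM and triangles are cells with many G2/M genes detected (at least 7 of 20). Most of the 84 cells below the line are at 0, and 8 of the 15 triangles lie above it.

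Genes of the G2 and M phases of the cell cycle were at a higher level in the cells with Neurog2. A level here is log2(RPKM + 1) averaged over cells, and a difference is the level with minus the level without Neurog2. Of the 20 G2/M genes listed, 19 were measured (RPKM of at least 1 in at least 10% of the E15 cells), and 18 of them were higher with Neurog2 in both sets and none lower in both. Their median difference was 0.80 (0.61 in set A and 0.87 in set B), while over all 7168 measured genes the median was 0.08 and 32.2% were higher in both sets. The G2/M genes passed the filter largely through the same few cells. Without the cells that had at least 7 of the 20 genes detected, only 2 were still measured. The count of 18 is therefore not a count of separate observations.

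Many promoters of G2/M genes carry a CCAAT box and a TTTGAA element, known as the CHR, and the promoters of the 4 members with the largest differences are shown so that these elements can be seen in sequence. The windows run from 250 bases before to 50 after the start of the gene in RefSeq (GRCm38.p6), 5′ to 3′ on the gene's strand, with each CCAAT or TTTGAA in capitals in either orientation (ATTGG and TTCAAA on the reverse strand). They are Bub1b at chr2:118597961-118598260 (+), Top2a at chr11:99024140-99024439 (-), Mki67 at chr7:135716330-135716629 (-) and Ccnb1 at chr13:100786437-100786736 (-).
Bub1b: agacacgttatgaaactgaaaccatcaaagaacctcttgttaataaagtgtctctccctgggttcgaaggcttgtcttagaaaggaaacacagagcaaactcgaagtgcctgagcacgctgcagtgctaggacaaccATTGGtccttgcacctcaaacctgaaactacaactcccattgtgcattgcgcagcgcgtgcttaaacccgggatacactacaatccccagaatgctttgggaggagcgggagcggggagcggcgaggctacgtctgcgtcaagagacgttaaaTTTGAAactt
Top2a: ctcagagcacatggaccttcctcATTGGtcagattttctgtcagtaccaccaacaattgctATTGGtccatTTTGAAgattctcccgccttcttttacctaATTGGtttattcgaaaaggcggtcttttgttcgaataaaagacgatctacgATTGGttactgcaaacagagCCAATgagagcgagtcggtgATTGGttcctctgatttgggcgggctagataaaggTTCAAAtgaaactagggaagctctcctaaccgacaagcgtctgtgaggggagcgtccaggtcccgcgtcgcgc
Mki67: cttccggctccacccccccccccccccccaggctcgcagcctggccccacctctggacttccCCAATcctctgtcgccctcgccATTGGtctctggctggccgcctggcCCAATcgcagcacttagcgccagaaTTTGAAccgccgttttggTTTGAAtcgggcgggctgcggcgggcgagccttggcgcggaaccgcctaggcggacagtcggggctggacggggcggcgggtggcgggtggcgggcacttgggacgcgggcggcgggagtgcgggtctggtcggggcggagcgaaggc
Ccnb1: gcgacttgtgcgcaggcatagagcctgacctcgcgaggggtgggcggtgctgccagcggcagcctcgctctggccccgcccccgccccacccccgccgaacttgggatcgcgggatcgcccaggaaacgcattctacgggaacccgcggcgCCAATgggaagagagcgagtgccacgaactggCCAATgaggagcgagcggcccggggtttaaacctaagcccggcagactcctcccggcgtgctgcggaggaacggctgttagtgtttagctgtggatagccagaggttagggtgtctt
Of 18 listed G2/M genes with a window, 16 held CCAAT (88.9%), 13 held TTTGAA (72.2%) and 13 held both. Among all 32851 windows of the RefSeq table, 37.4% held CCAAT, 17.9% TTTGAA and 6.95% both. The Ccnb1 window holds CCAAT but not TTTGAA. These matches describe the letters of the windows and say nothing of binding in these cells.

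Bub1b, a kinase of the spindle checkpoint, ran from 0 to 111.5 RPKM with a median of 0 in cells with Neurog2, and from 0 to 106.3 RPKM with a median of 0 in cells without. It was detected in 24.3% (11.8 to 41.2) of cells with and 7.14% (2.67 to 14.9) of cells without Neurog2, and its level was 1.10 higher (1.09 in set A and 1.11 in set B). A few cells carried the gene at a high level in either group, and most cells of either group had none. Top2a, the topoisomerase that untangles chromosomes before they separate, ran from 0 to 362 RPKM with and 0 to 338 RPKM without Neurog2, at a median of 0 in each. Its level was 1.11 higher (0.56 in set A and 1.43 in set B), with detection in 43.2% against 20.2% of cells. Mki67, the proliferation antigen, was detected in 15 of 37 cells with and 11 of 84 without Neurog2, with highest values of 92.7 and 147 RPKM. The gap in Mki67 was wide in set B, at 46.2% against 5.71% of cells, and narrow in set A, at 27.3% against 18.4%. Ccnb1, the cyclin of mitotic entry, ran from 0 to 181 RPKM with and 0 to 388 RPKM without Neurog2, and was 1.04 higher, with detection in 29.7% against 11.9% of cells. Each of these genes was at 0 in cells of both groups, and the highest cell lacked Neurog2 for Mki67 and Ccnb1.

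Some cells had many genes of the G2/M list detected together. Cells with at least 7 of the 20 genes detected made up 8 of 37 with Neurog2, or 21.6% (9.83 to 38.2), and 7 of 84 without, or 8.33% (3.42 to 16.4). In set A these were 3 of 11 against 6 of 49 cells, and in set B 5 of 26 against 1 of 35. The shares were higher with Neurog2 in each set, and the intervals of the groups overlapped. Eomes was detected in all 15 of these cells. With these 15 cells left out, a choice that removes cells for having these genes, only 2 genes of the list were still measured, and the differences were 0.57 for Mki67, 0.33 for Ccnb1, 0.31 for Top2a and 0.26 for Bub1b. When cells were matched on detected genes (36 of each group), 17 of 19 G2/M genes were higher in both sets, with a median of 1.13. Genes of the G1 and S phases were mixed: of 9 measured, 3 were higher and 3 lower in both sets, with a median difference of 0.08. The largest difference was that of Rrm2, the small subunit of ribonucleotide reductase, at 1.54 (2.19 in set A and 1.14 in set B). Rrm2 was detected in 35.1% (20.2 to 52.5) of cells with and 9.52% (4.20 to 17.9) of cells without Neurog2. Its highest values were 698 RPKM with and 946 RPKM without Neurog2. Tyms was 0.63 higher (0.65 in set A and 0.63 in set B) and Mcm7 0.30 (0.58 and 0.14). Among cyclin D genes and their kinases, Cdk6 was 0.55 higher (0.50 in set A and 0.58 in set B), and Ccnd2 was 0.89 higher in set B and -0.01 apart in set A.

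Eomes, the T-box factor that marks intermediate progenitors (chr9:118478212-118486132, GRCm38), was higher in the cells with Neurog2, and its exons overlap the model Gm33460. It ran from 0 to 166 RPKM with a median of 20.2 in cells with Neurog2, and from 0 to 152 RPKM with a median of 2.87 in cells without. Top levels were alike, and cells with Neurog2 were less often below 1 RPKM: Eomes was detected in 78.4% (61.8 to 90.2) of them against 57.1% (45.9 to 67.9). The difference in level was 1.23, with 0.86 in set A and 1.45 in set B. By set, detection was 54.5% against 51.0% in set A and 88.5% against 65.7% in set B, so the gap in detection was found in set B. Read the other way, Neurog2 was detected in 29 of 77 cells with Eomes and in 8 of 44 without.

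Other genes of intermediate progenitors leaned the same way but less. Of 14 listed, 10 were measured, 7 were higher in both sets and 1 lower, with a median of 0.40. With the 15 cells of many G2/M genes left out, 4 were higher and none lower, with a median of 0.18, and matched on detected genes 5 of 11 were higher and 1 lower, with a median of 0.39. Btg2, an antiproliferative gene of progenitors about to produce neurons, ran from 0 to 465 RPKM (median 30.9) with and 0 to 302 RPKM (median 0.233) without Neurog2, and was 1.01 higher (0.66 in set A and 1.22 in set B). Gadd45g, a growth arrest gene, was 0.68 higher (0.79 in set A and 0.62 in set B), with detection in 72.7% against 61.2% of cells in set A and 34.6% against 28.6% in set B. Nhlh1, a bHLH gene of newly made neurons, leaned the other way at -0.29 and was detected in 40.5% (24.8 to 57.9) against 58.3% (47.1 to 69.0) of cells. Insm1, a zinc finger factor of delaminating progenitors, was 0.86 higher in set A and 0.07 in set B.

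Known targets of Neurog2 were mixed. The list of genes induced by Neurog2 in the literature shares several members with the intermediate progenitor list, Eomes and Btg2 among them. Of its 16 genes, 14 were measured, 7 were higher and 2 lower in both sets, and the median difference was 0.28. Dll1, the ligand through which progenitors activate Notch in their neighbours, was detected in 32.4% (18.0 to 49.8) of cells with and 25.0% (16.2 to 35.6) of cells without Neurog2, a difference in level of 0.26. Neurod1 differed by -0.25 (-0.01 in set A and -0.39 in set B) and Tbr1 by 0.24 (0.04 and 0.36). Hes6, a Hes factor that promotes neurogenesis, had opposite signs in the sets, -0.68 in set A and 0.52 in set B. Rnd2, which acts in the migration of new neurons, had medians of 139 RPKM with and 131 RPKM without Neurog2, and was 0.86 higher in set A and -0.04 apart in set B. The motif CAGATG, an E-box that Neurog2 is known to prefer, was in 2 of the 15 promoter windows found for this list and in 17.2% of all windows on either strand. Cbfa2t2, a corepressor of the ETO family (chr2:154436481-154539356), was the 1 target called by the rule for all genes given further on. It ran from 0 to 250 RPKM (median 57.4) with and from 0 to 319 RPKM (median 18.6) without Neurog2. Its level was 1.19 higher, at 1.10 in set A and 1.24 in set B, although the highest single cell lacked Neurog2. Notch pathway genes as lists stood near 0, with medians of 0.04 for ligands and modulators and 0.02 for receptors and effectors. Hes5, Dll3, Neurod4 and Sox2 were detected in less than the 10% of cells needed for measurement, and Hes1 and Neurog1 were listed at 0 in every E15 cell.

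Neuronal genes leaned lower in cells with Neurog2, without being absent. Of 11 measured genes of glutamatergic neurons, 8 were lower and 2 higher in both sets, with a median of -0.25, while 19.4% of all measured genes were lower in both sets. Matched on detected genes, 7 of 12 were lower and 2 higher, with a median of -0.31. Among the cells with Eomes detected alone, 3 of 11 were lower and 3 higher, with a median of -0.08, and without the 1 cell that had 3 Cajal-Retzius markers the median was -0.09 over 12 genes. Over all E15 cells, Slc17a6 was among the list's members higher in both sets, at 0.60 (0.75 in set A and 0.51 in set B). Its detection was 83.8% against 72.6% of cells. Neurod6, the bHLH factor of postmitotic glutamatergic neurons, ran from 0 to 2261 RPKM (median 793) with and 0.244 to 2287 RPKM (median 695) without Neurog2. It was detected in 36 of 37 and 82 of 84 cells, so nearly all cells that still held Neurog2 also held this neuronal transcript, and its level differed by -0.26. Eomes and Neurod6 were found together in 29 of 37 cells with Neurog2 (78.4%) and in 48 of 84 without (57.1%). Neurod6 without Eomes was found in 7 of 37 cells with and 34 of 84 cells without Neurog2, and no E15 cell had Eomes without Neurod6. Pan-neuronal genes did not lean: of 14 measured, 5 were higher and 4 lower in both sets, with a median of 0.08.

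The genes of projection neuron identity were among the lower ones. Fezf2, which specifies subcerebral neurons, ran from 0 to 50.6 RPKM with and 0 to 137 RPKM without Neurog2, and was detected in 29.7% (15.9 to 47.0) against 41.7% (31.0 to 52.9) of cells. Its difference was -0.80, at -1.37 in set A and -0.46 in set B. In set A, 1 of 11 cells with Neurog2 had Fezf2 against 21 of 49 without, and in set B the counts were 10 of 26 and 14 of 35, so the gap in detection was found in set A. Bcl11b, another factor of subcerebral neurons, differed by -0.64, with detection in 54.5% against 73.5% of cells in set A and 76.9% against 71.4% in set B. Of 7 measured deep layer genes 4 were lower and 1 higher in both sets (median -0.27), and of 7 upper layer genes 3 were lower and none higher (median -0.30). Of 21 measured genes of migration and guidance, 10 were lower and 5 higher in both sets, with a median of -0.24. The guidance ligand Sema6d had medians of 2.70 RPKM with and 8.65 RPKM without Neurog2 and differed by -0.96 (-0.89 in set A and -1.01 in set B). The netrin receptor Unc5d, known from multipolar cells, differed by -0.81 and the ephrin receptor Epha4 by -0.89.

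**Figure D2:**
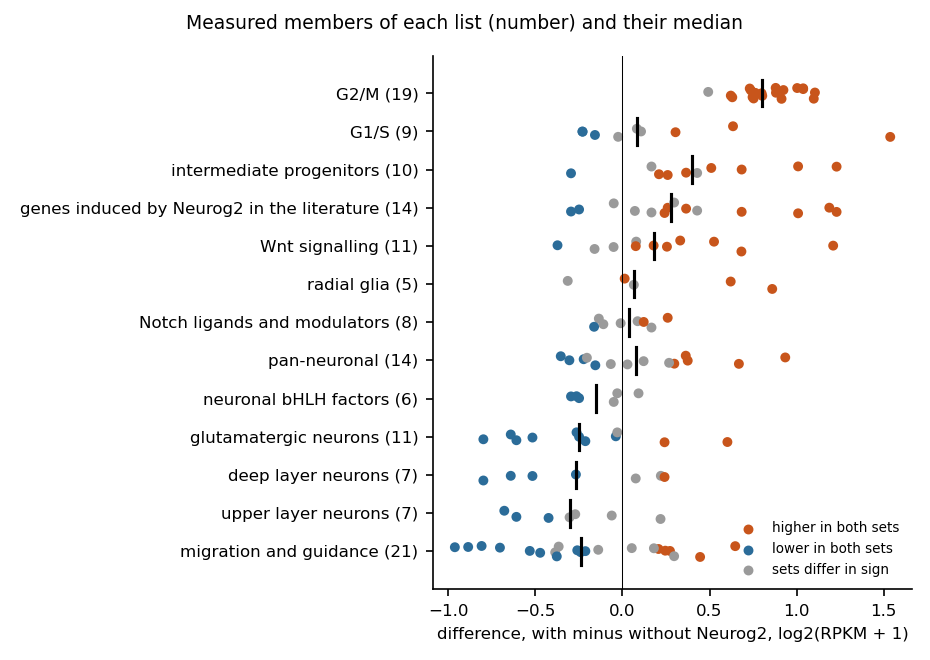
Difference in level, with minus without Neurog2, of the measured members of 13 gene lists (number of members in brackets); each point is a gene, coloured by whether both sets agree in sign, and the bar is the list's median. The 19 G2/M genes lie to the right of 0 with a median of 0.80, and glutamatergic, layer and migration genes have medians between -0.24 and -0.30.

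Across all genes the sets agreed poorly. A gene was called where the difference was at least 1 in the same direction in both sets. That held for 36 of 7168 measured genes in the higher direction (0.502%) and for 4 in the lower direction (0.0558%). By set, 650 genes were at least 1 higher in set A and 196 in set B. The 36 are 5.54% of those of set A, where 2.73% of all measured genes passed in set B, and 18.4% of those of set B, where 9.07% passed in set A. Across genes, which are not independent replicates, the differences of the sets had a Pearson correlation of 0.05 and the same sign in 51.6%. The smaller group in set A holds 11 cells. The named genes below therefore describe these 121 cells. Of the lists above, 1 of 19 measured G2/M genes (Bub1b), 1 of 9 G1/S genes (Rrm2) and 1 of 14 genes induced by Neurog2 (Cbfa2t2) were among the called, and none of the intermediate progenitor, glutamatergic or migration genes.

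**Figure D3:**
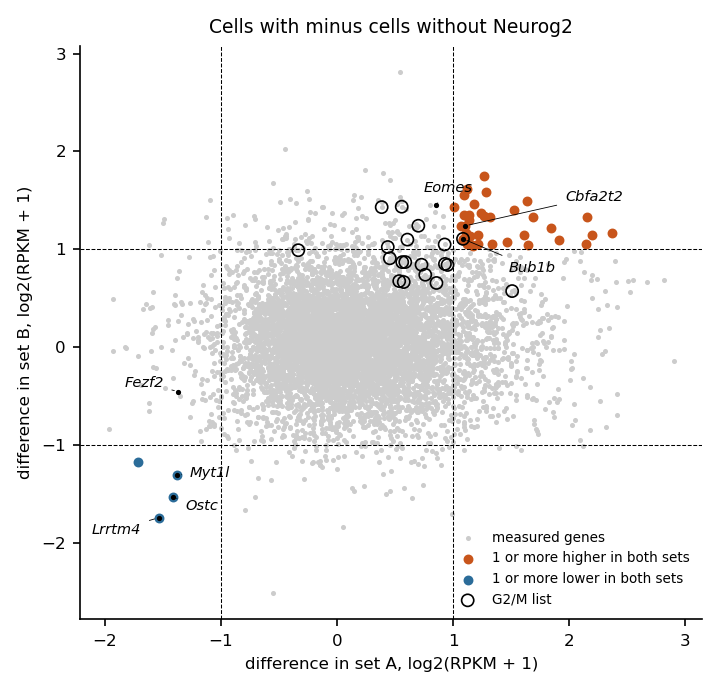
Difference in level, with minus without Neurog2, of the 7168 measured genes in set A (horizontal) and set B (vertical); dashed lines mark 1 and -1, filled colours the 36 genes called higher and 4 called lower, and open circles the G2/M list. The cloud shows no shared slope (Pearson correlation 0.05), and the open circles sit mostly in the upper right.

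Of the 36 genes called higher, the 12 with the largest differences, gene models left out, are named here, with Rrm2 given above. Rad21, a subunit of the cohesin ring, had the largest difference of the named genes, 1.64 (2.16 in set A and 1.33 in set B). It ran from 0 to 230 RPKM (median 19.5) with and 0 to 275 RPKM (median 0.224) without Neurog2. Rad21 was detected in 78.4% (61.8 to 90.2) against 40.5% (29.9 to 51.7) of cells over both sets. By set, the shares were 81.8% against 34.7% in set A and 76.9% against 48.6% in set B, with intervals that overlap in each. Cks1b, a subunit of cyclin-dependent kinases, was 1.46 higher, the importin Kpna2 1.47 and the cyclin Ccnj 1.45. Ppp1ca, a catalytic subunit of protein phosphatase 1, was 1.47 higher (1.69 in set A and 1.33 in set B), the nucleic acid binding protein Cnbp 1.55, the transcription cofactor Eny2 1.45, the cochaperone Sgta 1.43 and the ribosome maturation kinase Riok1 1.38. Tmem50a (1.57) and Pnrc2 (1.40) complete the 12 with the largest differences. With the 15 cells of many G2/M genes left out, 30 genes were called higher and 8 of them were among the 36, namely Cnbp, Ccnj and, named after their values were seen, Commd6, Strn3, Ttc5, Pcf11 and 2 model or small RNA genes. Rad21, Cks1b, Kpna2, Rrm2 and Bub1b were then no longer called.

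The 4 genes called lower were Lrrtm4, Myt1l, Ostc and the model gene Gm17750. Lrrtm4, a synaptic adhesion protein with leucine-rich repeats (chr6:80018877-80810143), was detected in 7 of 37 cells with Neurog2, or 18.9% (7.96 to 35.2), and in 34 of 84 without, or 40.5% (29.9 to 51.7). Its highest values were 133 and 194 RPKM, and its difference was -1.67 (-1.54 in set A and -1.75 in set B). In set A none of the 11 cells with Neurog2 had it (0 to 28.5%). Myt1l, a zinc finger factor that represses non-neuronal genes in neurons (chr12:29528384-29923213), ran from 0 to 74.0 RPKM (median 6.99) with and 0 to 247 RPKM (median 19.8) without Neurog2. It was detected in 62.2% (44.8 to 77.5) against 81.0% (70.9 to 88.7) of cells and differed by -1.33 (-1.38 in set A and -1.31 in set B). The cells with Neurog2 thus mostly held Myt1l, at a lower amount. Exons of Myt1l overlap the model Gm20208, and the counts may mix the pair. Ostc, a subunit of the oligosaccharyltransferase, was detected in 27.0% (13.8 to 44.1) against 53.6% (42.4 to 64.5) of cells and differed by -1.49 (-1.42 in set A and -1.54 in set B). Over 21 other ways to scale, filter or choose cells, Lrrtm4 stayed called in 21, Ostc in 20 and Myt1l in 19, and the genes called higher in 10 to 20. Some of these ways could not test a call. Dropping the filter or weighting the sets equally could not lose a call, and set A or set B alone could do so only through the detection filter. Exons of 12 of the 40 called genes overlap another gene.

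**Figure D4:**
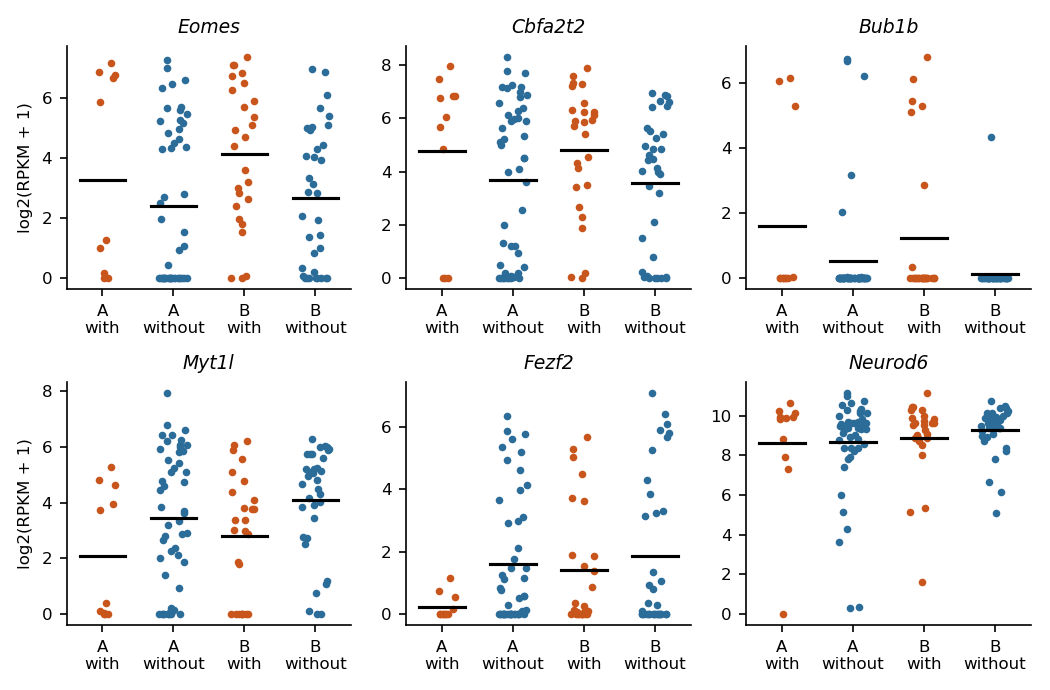
Level of 6 genes in each E15 cell, as log2(RPKM + 1), by set and by whether Neurog2 was at least 1 RPKM (with) or below (without); bars are means. All groups overlap, the means of Eomes, Cbfa2t2 and Bub1b lie higher and those of Myt1l and Fezf2 lower with Neurog2 in each set, and Neurod6 is close.

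Some genes of progenitors and of the dorsal telencephalon differed in how many cells had them. Lef1, a nuclear effector of Wnt signalling, was detected in 35.1% (20.2 to 52.5) of cells with and 8.33% (3.42 to 16.4) of cells without Neurog2, with highest values of 11.7 and 10.4 RPKM. The counts were 4 of 11 against 6 of 49 in set A and 9 of 26 against 1 of 35 in set B. Emx1, a homeobox gene of the pallium, was detected in 59.5% (42.1 to 75.2) against 27.4% (18.2 to 38.2) of cells, and was 0.90 higher in level (0.68 in set A and 1.03 in set B). Sox9, a factor of radial glia, was detected in 45.9% (29.5 to 63.1) against 20.2% (12.3 to 30.4) of cells. Emx1 was in 45.5% against 22.4% of cells in set A and 65.4% against 34.3% in set B, and Sox9 in 36.4% against 16.3% and 50.0% against 25.7%. Within a set the intervals of the groups overlap for Emx1 and Sox9 in both sets and for Lef1 in set A. In set B those of Lef1 do not (17.2 to 55.7 and 0.0723 to 14.9), which is no test, as the cells are 1 sample. How many of all measured genes part in this way was not counted. In the cells without Neurog2, Lef1 was below the 10% needed for measurement. Pax6, which acts upstream of Neurog2 in radial glia, was in 1 of 11 against 9 of 49 cells in set A and 8 of 26 against 9 of 35 in set B. The Wnt antagonist Sfrp1 was 1.21 higher (1.82 in set A and 0.85 in set B). Of 19 Wnt pathway genes 11 were measured, 7 were higher and 1 lower in both sets, with a median of 0.18, and among radial glia genes 5 were measured, of which 3 were higher and none lower (median 0.07). These shares were compared between groups that also differed in detected genes.

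Splitting the members by amount of Neurog2 gave small groups, and several genes did not follow the amount. Eomes was detected in 13 of 19 cells with 1 to 10 RPKM of Neurog2 and in 16 of 18 cells with 10 RPKM or more. Fezf2 was detected in 9 of 19 cells of the lower range and in 2 of 18 of the higher range. In the lower range the sets differed. The share was 16.7% against 42.9% without Neurog2 in set A (6 cells), and 61.5% against 40.0% in set B (13 cells). Pax6 was in 2 of 19 and 7 of 18 cells, with 1 of 13 and 7 of 13 in set B and 1 of 6 and 0 of 5 in set A. Btg2 was in 14 of 19 and 10 of 18 cells, and the sets went opposite ways. It was in 6 of 6 and 1 of 5 cells in set A, and in 8 of 13 and 9 of 13 in set B. Cells with many G2/M genes were 3 of 19 and 5 of 18. Compared with cells below 1 RPKM, the cells at 10 RPKM or more had a glutamatergic median of -0.65 and a G2/M median of 1.03. The intermediate progenitor median was 0.25 (-0.17 in set A and 0.70 in set B), with 3 of 10 genes higher and 1 lower in both sets. For genes induced by Neurog2 in the literature it was 0.22 (-0.07 and 0.37), with 5 of 14 higher and 4 lower. Of all genes measured in this comparison, 22.9% were higher in both sets.

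**Figure D5:**
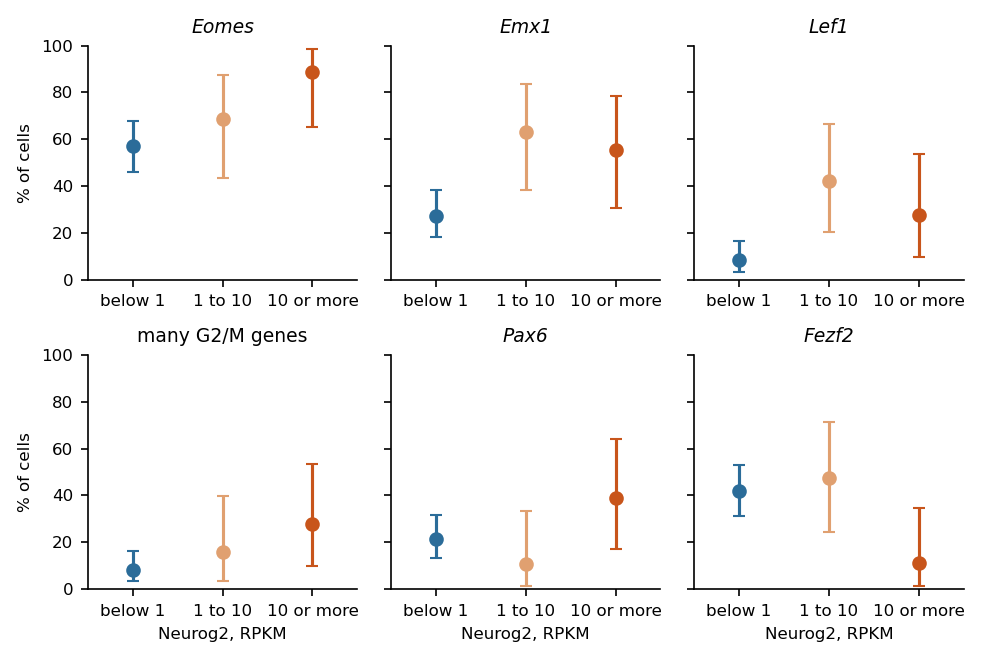
Share of cells with 5 genes detected, and of cells with many G2/M genes, among the 84 cells with Neurog2 below 1 RPKM, the 19 with 1 to 10 RPKM and the 18 with 10 RPKM or more; bars are 95% Clopper-Pearson intervals. Eomes is at 88.9% and Fezf2 at 11.1% in the highest range, and the intervals are wide.

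Markers of other cell types were near 0 in both groups. None of the genes listed for interneurons, oligodendrocyte precursors or microglia reached 1 RPKM in any E15 cell, Gad1, Olig2 and Csf1r among them, and no listed gene of astrocytes, vessels, erythroid cells or Cajal-Retzius cells was in 10% of the cells. At least 1 of the 6 Cajal-Retzius markers was detected in 5 cells with and 6 without Neurog2. The label of glutamatergic progenitors thus covers cells nearly all of which held Neurod6, and of which 77 of 121 held Eomes.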

How the data were processed

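RPKM values per gene and cell were deposited by the authors in 1 table for the E15 cells, with 46983 gene names. Per the submitters' processing notes, bcl2fastq 2.15.0.4, cutadapt 1.9.1, STAR and featureCounts were used with GRCm38.p4; the annotation and counting options are not given in the sources used here. From this table, read totals were estimated as the step of 1 read in low values, with gene lengths from GENCODE M21; a median of 81.4% of low values lay within 0.02 of a whole read. The kit named in the labels' protocols marks no strand, so overlapping genes cannot be told apart.

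Levels are means of log2(RPKM + 1), with a pseudocount of 1. Differences were taken in each title format and combined with weights from the cell numbers. Genes named are the 12 with the largest differences called in each direction (models left out), up to 4 members per list, and 29 fixed genes. Outside this rule, the called genes Elp2, Commd6, Strn3, Ttc5 and Pcf11 were named after their values were seen, Elp2 for its change of sign. The split, the 28 lists and the rules were chosen with earlier results of these data known. Scripts (Python 3.11.15, numpy 2.4.6, pandas 2.3.3, scipy 1.17.1, matplotlib 3.10.9) were tested on simulated data. Promoters came from RefSeq. P2 cells were not used here, and some genes are not reported here.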

Additional observations from a re-analysis of the deposited data

How the results depend on the processing

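The share of measured genes called depended on the settings. Against 0.502% higher and 0.0558% lower, it was 3.84% and 0.698% with a pseudocount of 0.1, 1.98% and 3.04% when RPKM was averaged before the log2, and 3.21% and 0.67% on the TPM scale. It was 0.175% and 0.0195% with no filter (the same 36 and 4 genes among 20563), and 0.107% lower with detection in 25% of cells. It was 1.56% and 0.181% with the sets pooled, 2.75% and 1.12% in set B alone and 9.16% and 1.97% in set A alone. With other limits for Neurog2 it was 1.1% higher (above 0), 1% and 0.405% (at least 5 RPKM) and 0.853% and 0.569% (at least 10 against below 1). With fewer cells it was 0.119% lower without cells of few detected genes, 0.933% and 0.143% without cells above 20% mitochondrial, 0.809% and 0.405% matched on detected genes, 0.0971% lower without title numbers 62 to 69, 0.169% lower without cells of many G2/M genes, and 1.47% and 0.183% in cells with Eomes. A call size of 0.5 gave 5.45% and 1.58%, and one of 2 gave 0% and 0%. The difference of Elp2, called higher, was -0.0015 when RPKM was averaged before the log2; the cause was not tested. The G2/M median stayed above 0 in all 21 settings that could give one, from 0.59 to 1.43. Leaving out the cells with many G2/M genes was not among them, as only 2 genes of the list were then measured. The settings that changed only the scale, the filter or the call size kept all of those cells. Whether the median depends on those cells was therefore not tested. Eomes, Myt1l, Lrrtm4 and Fezf2 kept their sign in all 23 settings. Among these, the call sizes of 0.5 and 2, the lack of a filter and the filter of 25% could not change a gene's difference. Each of these genes had the same sign in both sets, so set A alone, set B alone and equal weights could not reverse it. The call sizes could not change the G2/M median either.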

Other observations

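In set B, 1 cell with 12.0 RPKM of Neurog2 carried 3 markers of Cajal-Retzius cells, the early pioneer neurons of the cortical surface. It held 187 RPKM of Reln, 5.46 of Calb2 and 6.06 of Lhx1, together with 25.1 of Eomes and 18.0 of Tbr1, and only 2.11 of Neurod6. No other E15 cell had 3 of these markers. Without this cell, 43 genes were called higher and 4 lower.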
